A study of Mus musculus with 6 samples.

Results

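The genes described here are 9 that act in the clearance of dying cells and debris: Mertk, Axl, Gas6, Pros1, Stab1, Msr1, Marco, Sirpa and Cd47. They were taken by symbol from the gene list of the deposited matrices and joined between libraries on the Ensembl identifier, and all 9 were found among the 30406 genes shared by the 6 libraries. Female mice carried mammary tumours for 4 weeks after injection of Py8119 cells, a mouse mammary tumour line, and live CD45-positive cells of these tumours were sorted for single-cell 3' RNA sequencing. The 6 groups hold 1 library each. They are intact mice lacking Mtdh (intact KO), KO marrow in a KO host (KO-to-KO), KO marrow in a WT host (KO-to-WT), WT marrow in a KO host (WT-to-KO), WT marrow in a WT host (WT-to-WT) and intact wild-type mice (intact WT). The 4 marrow groups are irradiated chimeras that received tumour cells 8 weeks after marrow transfer, and about 15000 cells were loaded for each library. Mtdh encodes an adaptor protein that is often raised in tumours, and the series title places the question in the host's Mtdh and its effect on antitumour immunity. The injected tumour cells are the same in every group, and the labels give neither the age of the mice nor how many mice stand behind a library.

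Efferocytosis is the engulfment of apoptotic cells by phagocytes. Mertk and Axl are receptor tyrosine kinases of the TAM family, and their ligands Gas6 and protein S (Pros1) bridge the receptor to phosphatidylserine on the dying cell. Stab1, Msr1 and Marco are scavenger receptors, of which Stab1 also binds phosphatidylserine, while Msr1 and Marco bind modified lipoproteins and bacterial or particulate ligands. Cd47 on a target cell engages Sirpa on the phagocyte and holds back engulfment. In tumours, macrophages carry most of these receptors, and conventional dendritic cells (cDC) of the first and the second type, written cDC1 and cDC2, take up dead tumour cells for antigen presentation.

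The promoters of Axl, Gas6, Stab1 and Pros1 are shown because the genotype results below turn on these 4 genes. Each runs 5' to 3' on the gene's own strand, from 250 bases before to 50 bases after the RefSeq transcript start, in the build GRCm38.p6. Pros1 lies on the plus strand and the others on the minus strand. The capitals mark GAGGAA on either strand, the core of the site bound by the myeloid factor PU.1, in Axl and Stab1, and the interferon gamma activated site TTCNNNGAA in Pros1.
Axl, chr7:25788684-25788983: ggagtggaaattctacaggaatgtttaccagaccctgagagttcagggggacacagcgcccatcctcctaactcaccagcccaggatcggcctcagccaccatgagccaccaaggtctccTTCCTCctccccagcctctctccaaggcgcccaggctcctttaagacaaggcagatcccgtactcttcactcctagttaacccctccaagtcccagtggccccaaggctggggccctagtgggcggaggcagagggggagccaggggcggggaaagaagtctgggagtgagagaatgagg
Gas6, chr8:13494486-13494785: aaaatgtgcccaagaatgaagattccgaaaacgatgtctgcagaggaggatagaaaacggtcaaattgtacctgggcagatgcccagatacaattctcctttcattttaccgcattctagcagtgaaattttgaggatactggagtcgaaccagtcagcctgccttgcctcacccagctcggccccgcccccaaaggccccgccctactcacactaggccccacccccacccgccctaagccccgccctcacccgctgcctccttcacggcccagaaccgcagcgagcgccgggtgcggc
Stab1, chr14:31168592-31168891: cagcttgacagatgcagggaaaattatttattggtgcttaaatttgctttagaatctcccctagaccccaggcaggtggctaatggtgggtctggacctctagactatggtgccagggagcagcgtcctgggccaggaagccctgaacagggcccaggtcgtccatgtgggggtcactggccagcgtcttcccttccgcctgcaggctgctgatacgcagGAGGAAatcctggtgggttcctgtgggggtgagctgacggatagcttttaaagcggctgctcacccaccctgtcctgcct
Pros1, chr16:62854057-62854356: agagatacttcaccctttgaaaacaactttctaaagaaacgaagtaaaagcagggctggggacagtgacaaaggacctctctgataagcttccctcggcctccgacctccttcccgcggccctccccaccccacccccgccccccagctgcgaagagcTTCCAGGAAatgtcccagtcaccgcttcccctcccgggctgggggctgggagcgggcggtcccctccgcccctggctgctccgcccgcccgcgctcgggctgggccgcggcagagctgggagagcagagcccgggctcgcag
GAGGAA lies 130 bases before the Axl start and 30 bases before the Stab1 start, and these letters are not in the Gas6 or the Pros1 window. It is also held by 28.3% of all 32851 mouse promoters of this length. TTCNNNGAA is held by 8.30% of promoters and, of the 4 shown, by Pros1 alone. The core of the interferon-stimulated response element (3.44%), the E-box CACGTG (7.15%) and the LXR direct repeat (0.0152%) were also searched and are in none of these 4 windows. All searches covered both strands.

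The check of the labels rests on Mtdh in macrophages, which averaged 17.0 CPM in intact KO, 14.1 in KO-to-KO and 20.1 in KO-to-WT, against 110.2 in WT-to-KO, 113 in WT-to-WT and 111 in intact WT. CPM is the usual depth-normalised count, here of unique molecular identifiers (UMIs, counted transcript molecules) summed over a class. Mtdh in macrophages therefore followed the marrow, not the host, in each of the 4 chimeras. Of 41267 barcodes, 40418 cells passed the quality limits, the libraries held 85616443 to 142779550 UMIs, and any 2 libraries shared 8 to 25 barcodes. Cells were placed in 11 classes by marker gates, which left 26628 macrophages (3773 to 5598 per library), 396 monocytes (14 to 191), 152 cDC1 (13 to 46), 282 cDC2 (26 to 79) and 275 mature dendritic cells (24 to 77). The other gated classes were neutrophils, T, NK and B cells, a plasmacytoid class of 21 cells that is not tested, and 1861 mesenchymal cells. The last were gated on keratin and collagen genes, held the CD45 gene Ptprc at 7.12 to 15.8 CPM and had Mtdh at 373 to 464 CPM in every library. The macrophage genes C1qa, C1qb and C1qc, which other classes should lack, were found there at 2.06% to 8.77% of their macrophage level, a measure of free RNA. Cells that reached the macrophage gate on these genes were kept out of the other classes. The measure, and the free RNA levels drawn from it below, may therefore be too low. On GRCm38 (GENCODE M21), the genes are Mertk (chr2:128698956-128802894, plus strand), Axl (chr7:25757273-25788705, minus), Gas6 (chr8:13465374-13494490, minus), Pros1 (chr16:62854307-62929346, plus), Stab1 (chr14:31139013-31168641, minus) and Msr1 (chr8:39581685-39642673, minus). The others are Marco (chr1:120474538-120505024, minus), Sirpa (chr2:129592835-129632228, plus) and Cd47 (chr16:49800533-49915010, plus). Each level below is a sum over a class, so fewer high cells and less RNA per cell cannot be told apart.

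Mertk was a macrophage gene. It averaged 122.6 ± 117.1 CPM in macrophages (SD over 6 libraries, each a different group), 32.7 ± 60.1 in neutrophils, and at most 4.48 in cDC1, cDC2 and mature dendritic cells. The neutrophil value rests on intact WT, at 155 CPM from 50 UMIs in 84 cells, against 2.40 to 11.8 CPM in the other 5 libraries. The large spread in macrophages came from the intact libraries. Macrophages had 160.3 CPM in intact KO, 46.4 in KO-to-KO, 62.1 in KO-to-WT, 61.4 in WT-to-KO, 59.2 in WT-to-WT and 346 in intact WT. Both intact libraries thus lay above all 4 chimeras. The intact libraries were also counted with another version of the counting software, so transplantation and software cannot be told apart for Mertk. Mertk overlaps Gm14011 on the opposite strand and Gm23172 on its own strand, and their part was not tested. A Mertk UMI was seen in 63.1% of macrophages (95% exact interval 62.5% to 63.7%) and in 0.896% of T cells, which should lack it, at medians of 17227.5 and 5941 UMIs per cell. After thinning each cell to 2000 UMIs, which left out 759 macrophages and 158 T cells, these shares were 19.97% and 0.251%. In cDC2, 3.90% of cells had a UMI, and the level exceeded what free macrophage RNA would bring in 1 library of 6.

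Axl was the TAM receptor shared by macrophages and dendritic cells. It averaged 160.8 ± 33.9 CPM in macrophages, 94.1 ± 37.1 in cDC2, 65.3 ± 15.8 in cDC1, 43.6 ± 28.2 in monocytes and 20.9 ± 8.25 in mature dendritic cells. Mesenchymal cells stood at 168 ± 30.1 CPM, beside macrophages, and those ranges overlapped. In the order of the classes, neighbours overlapped at every step. An Axl UMI was found in 77.6% of macrophages, 49.6% of cDC2 and 48.7% of cDC1, against 7.91% of T cells. Thinned to 2000 UMIs per cell, the shares were 25.3% in macrophages, 14.6% in cDC2, 9.21% in cDC1 and 2.79% in T cells. Free macrophage RNA would bring 5.70 to 8.61 CPM of Axl to cDC2 and 4.04 to 6.54 to cDC1, and all 6 libraries lay above it in both classes.

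The ligand Gas6 came from macrophages in the sorted cells. It averaged 104.3 ± 59.0 CPM there and 8.03 ± 6.44 in neutrophils, the next class, and these ranges did not overlap. In cDC1, cDC2 and mature dendritic cells its means lay between 0.908 and 2.45 CPM, and no cDC1 or cDC2 library exceeded the level that free macrophage RNA would bring. Macrophages had 25.9 CPM in intact KO (95% exact Poisson interval 24.9 to 27.0), 31.9 in KO-to-KO, 134 in KO-to-WT, 144 in WT-to-KO, 156 in WT-to-WT and 134 in intact WT. The 2 libraries with KO host and KO marrow stood far below the other 4. Gas6 shares genomic sequence with Tmem255b on the opposite strand, which had no UMI in macrophages.

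Pros1, the second ligand, was low and more widely spread. It averaged 23.0 ± 7.02 CPM in macrophages, 19.7 ± 8.75 in mesenchymal cells, 14.9 ± 6.71 in monocytes and 7.58 ± 5.47 in cDC2, with overlap between neighbours. Macrophages had 16.4 CPM in intact KO, 15.0 in KO-to-KO, 24.98 in KO-to-WT, 23.5 in WT-to-KO, 23.4 in WT-to-WT and 34.6 in intact WT. Again the intact KO and KO-to-KO libraries were the lowest.

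Stab1 and Msr1 marked macrophages and, at lower levels, monocytes. Stab1 averaged 239 ± 104 CPM in macrophages, 52.8 ± 13.9 in monocytes and 42.1 ± 32.8 in neutrophils, while the 3 dendritic cell classes lay between 5.03 and 11.4 CPM. The macrophage and monocyte ranges did not overlap, but the highest neutrophil library (102 CPM) reached the range of macrophages. Across libraries, macrophages had 93.6 CPM of Stab1 in intact KO, 133 in KO-to-KO, 243 in KO-to-WT, 301 in WT-to-KO, 303 in WT-to-WT and 357 in intact WT. Stab1 overlaps Nt5dc2 on the opposite strand, which stood at 16.1 to 32.9 CPM in macrophages. Msr1 averaged 370 ± 59.0 CPM in macrophages, 216 ± 67.3 in monocytes and 33.4 ± 15.9 in neutrophils, with no overlap between these 3. Macrophages held 295 CPM of Msr1 in intact KO, 318 in KO-to-KO, 405 in KO-to-WT, 342 in WT-to-KO, 425 in WT-to-WT and 433 in intact WT. The 3 KO hosts were the lowest for Msr1.

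Marco was close to absent. All 26628 macrophages held 97 UMIs of Marco in 29 cells, and 40 of the 60 UMIs in intact KO came from 1 cell. The KO-to-KO library had 19 UMIs in 4 cells, intact WT 16 in 11, KO-to-WT and WT-to-WT 1 each and WT-to-KO 0. Among 1238 B cells, 1 cell of intact WT held 14 UMIs. No monocyte, cDC1, cDC2, mature dendritic cell, neutrophil or NK cell library had any.

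Sirpa had its highest mean in macrophages and separated the dendritic cell types. It averaged 281 ± 28.9 CPM in macrophages, 219 ± 41.6 in neutrophils, 170.4 ± 37.0 in monocytes, 135 ± 35.4 in cDC2, 43.8 ± 8.37 in mature dendritic cells and 8.79 ± 4.10 in cDC1. Neighbours in this order overlapped from macrophages through neutrophils and monocytes to cDC2. The ranges of cDC2 and mature dendritic cells did not overlap, and no cDC1 library exceeded 14.0 CPM. Sirpa is known as a surface marker of cDC2. In macrophages it had 266 CPM in intact KO, 288 in KO-to-KO, 253 in KO-to-WT, 287 in WT-to-KO, 261 in WT-to-WT and 333 in intact WT. Sirpa has close paralogs (Sirpb1a, Sirpb1b and Sirpb1c), and counting could split reads among them.

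Its partner Cd47 was present in every class. Mature dendritic cells had 586 ± 77.3 CPM, NK cells 526 ± 75.3, monocytes 508 ± 78.8, cDC2 400.3 ± 46.2, cDC1 355 ± 56.4 and T cells 343 ± 54.8. Macrophages (271 ± 40.5) and mesenchymal cells (221 ± 28.2) were among the lowest, and neighbouring classes overlapped throughout. Macrophages had 295 CPM of Cd47 in intact KO, 312 in KO-to-KO, 286 in KO-to-WT, 263 in WT-to-KO, 273 in WT-to-WT and 196 in intact WT.

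**Figure D1:**
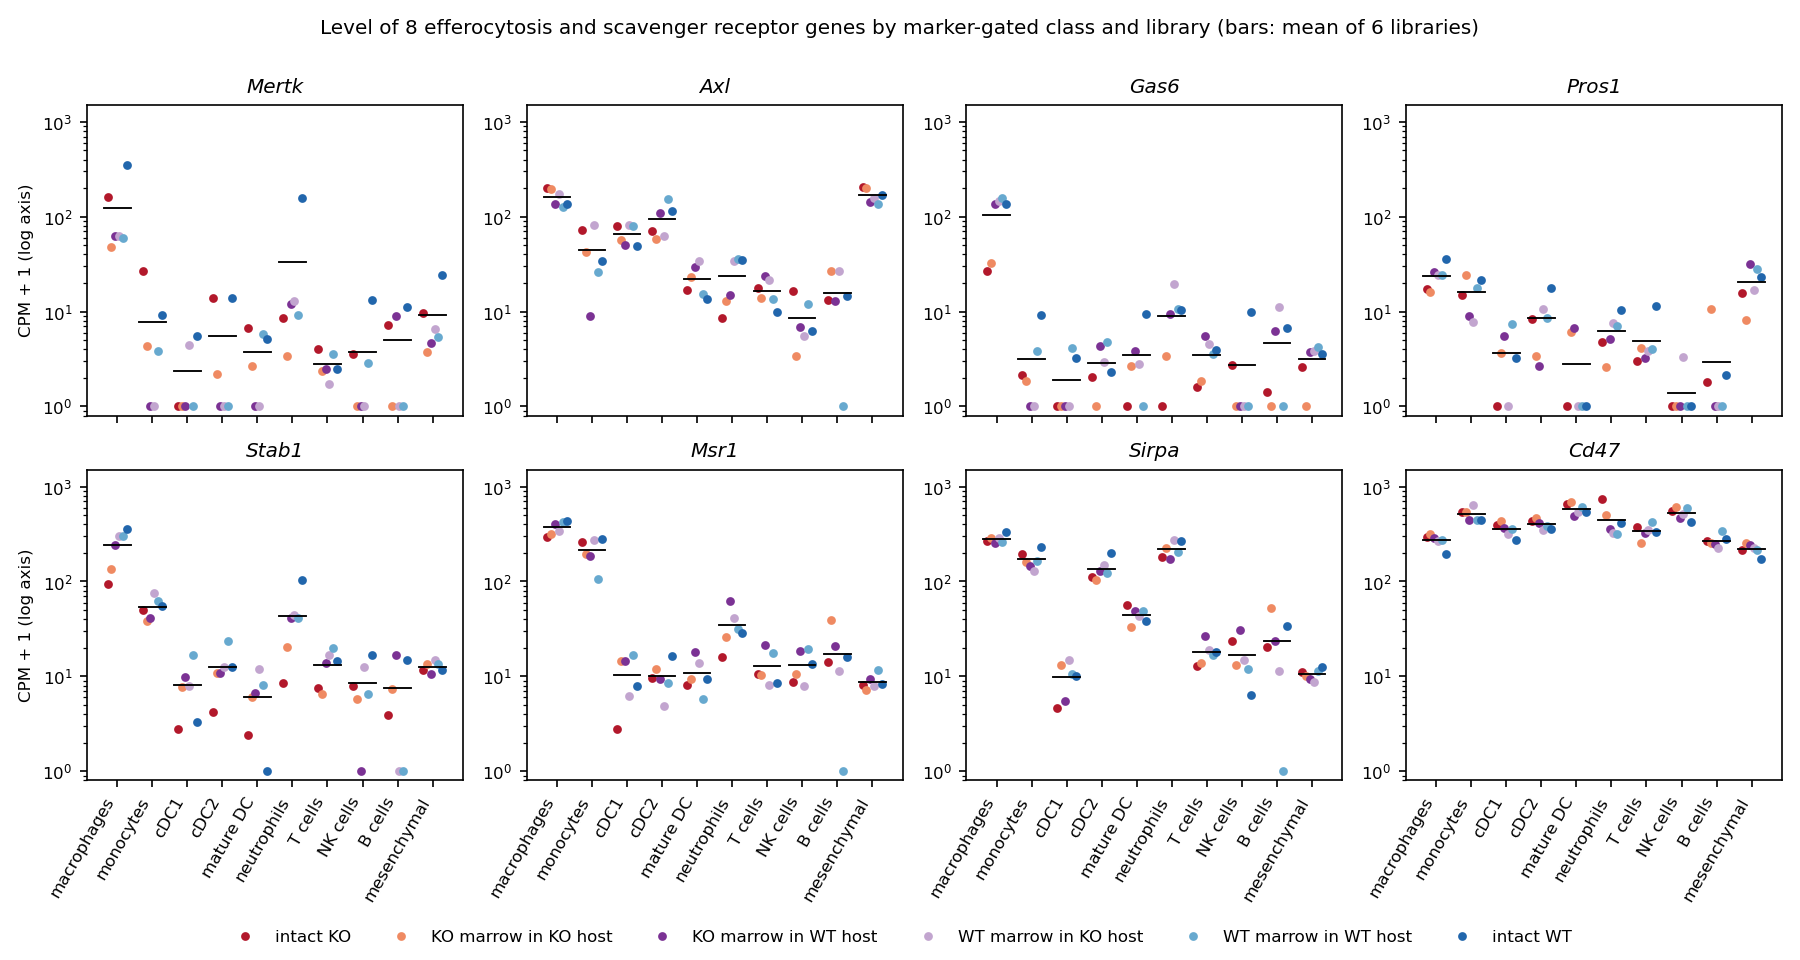
Each point is the level (CPM + 1, log axis) of a gene in a marker-gated class of 1 library, and bars are the means of the 6 libraries. Gas6 and Msr1 in macrophages lie above every other class without overlap of the ranges, Axl spans macrophages, both cDC classes and mesenchymal cells, and Cd47 is present in every class.

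Classes were compared within each library with edgeR's quasi-likelihood test, with the library as a block, and p-values were adjusted over all genes tested with a threshold of 0.05. Values are log2 differences, macrophages minus the other class. Against monocytes, 6 of the 8 genes that could be tested were higher in macrophages and Cd47 was lower, where 31% of all 13882 genes were called, 19.4% higher and 11.6% lower. The differences included Gas6 at 5.19 (SE 0.35, adjusted p = 4.91e-28), Mertk at 3.55, Stab1 at 1.91 (SE 0.17) and Msr1 at 0.77 (SE 0.18), while Pros1 at 0.15 was not called (adjusted p = 0.701). Against cDC1, 7 of 8 were higher and Cd47 was lower at -0.32 (39.5% of genes called, 24.9% higher and 14.7% lower). Gas6 differed by 7.05, Mertk by 6.501, Sirpa by 5.01 and Axl by 1.39 (SE 0.15, adjusted p = 1.09e-10). With stricter gates the Cd47 difference to cDC1 was -0.05 and no longer called (adjusted p = 0.850).

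Against cDC2, 6 of 8 were higher and Cd47 was lower at -0.57 (35.9% of genes called, 21.6% higher and 14.4% lower). Sirpa differed by 1.08 (SE 0.11) and Stab1 by 4.39 (SE 0.17). Axl, at 0.80 (SE 0.35), was not called (adjusted p = 0.142). Its call was made by DESeq2 (adjusted p = 0.0280) and without the WT-to-WT library (adjusted p = 0.0393). Against mature dendritic cells, 7 of 8 were higher and Cd47 was lower at -1.18 (SE 0.12), where 45.9% of genes were called, 28.2% higher and 17.6% lower. Against neutrophils, 6 of 8 were higher, Cd47 was lower at -0.78 and Sirpa at 0.24 was not called (51.8% of genes called, 32% higher and 19.8% lower, adjusted p = 0.213 for Sirpa). Against T cells, 7 of 9 were higher, and Cd47 and Marco were not called (62.1% of genes called, 34.9% higher and 27.2% lower).

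Macrophages were not uniform, and they were split within each library on 3 genes outside the group described. F13a1 encodes the A chain of coagulation factor XIII, Cxcl9 a chemokine induced by interferon gamma, and Arg1 arginase. Positive cells had at least 2 UMIs, and at least 2 per 10000, of F13a1 or Cxcl9, or at least 20 of Arg1. Negative cells had none of F13a1 or Cxcl9, or at most 5 per 10000 of Arg1. F13a1-positive cells made up 11.4% of macrophages in intact KO and 19.1% in KO-to-KO, against 62.2% in KO-to-WT, 56.6% in WT-to-KO, 69.2% in WT-to-WT and 77.6% in intact WT. Cxcl9-positive cells made up 44.9% in intact KO and 56.7% in KO-to-KO, against 4.16% in KO-to-WT, 6.91% in WT-to-KO, 1.13% in WT-to-WT and 3.82% in intact WT.

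The F13a1 split divided the genes most. In F13a1-positive macrophages, 6 of 9 were higher and 2 lower than in F13a1-negative macrophages of the same library, where 34.2% of genes were called, 17.3% higher and 16.9% lower. Gas6 differed by 2.26 (SE 0.09, adjusted p = 1.47e-06) and Stab1 by 1.51 (SE 0.08), and Msr1 (0.55), Pros1 (0.44), Mertk (0.36) and Sirpa (0.25) were also higher. Axl was lower by the same test, at -0.69 (SE 0.06, adjusted p = 2.93e-05), as was Cd47 at -0.29. Both TAM receptors were thus called in opposite directions, with Mertk higher and Axl lower in the cells that held more of the ligand Gas6. Median UMIs per cell ranged over libraries from 14157 to 20202 in F13a1-positive and from 13662.5 to 19878 in F13a1-negative cells.

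The Cxcl9 and Arg1 splits moved fewer of them. In Cxcl9-positive against Cxcl9-negative macrophages, Axl was higher at 0.38 (SE 0.06, adjusted p = 0.00134) and Msr1 lower at -0.30 (SE 0.05), 2 of 8 tested, where 12.3% of genes were called, 6.34% higher and 5.99% lower. Gas6 at -0.42 and Stab1 at -0.25 were not called (adjusted p = 0.110 and 0.180), and both were called with stricter gates (adjusted p = 0.00689 and 0.0132). Gas6 was also called by DESeq2 and without intact KO, and Stab1 without KO-to-KO. In Arg1-high against Arg1-low macrophages, Msr1 (0.70, SE 0.05) and Cd47 (0.31) were higher and Gas6 (-1.04, SE 0.06), Pros1 (-0.65), Stab1 (-0.53) and Sirpa (-0.23) lower, 6 of 9, where 35.5% of genes were called, 17.8% higher and 17.7% lower. The Stab1 call (adjusted p = 0.0295) was lost without the count filter and without each library except KO-to-KO. Axl at -0.10 and Mertk at -0.01 were not called.

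The study's design crosses the genotype of the host with that of the marrow. The clearest pattern in these genes set the libraries in which host and marrow were both KO (intact KO and KO-to-KO) against the other 4. It was tested as that contrast with a term for transplantation, a choice made with earlier results of these data known. In macrophages, 2 of 9 genes were higher and 3 lower, where 8.58% of 15172 genes were called higher and 6.89% lower, 15.5% in all. Gas6 averaged 28.9 ± 4.24 CPM with both KO (SD, n = 2) and 142 ± 10.3 in the others (n = 4), a log2 difference of -2.17 (SE 0.09, adjusted p = 6.31e-04). Stab1 averaged 113 ± 28.1 CPM with both KO and 301 ± 46.5 in the others, a difference of -1.33 (SE 0.20, adjusted p = 0.0139). Pros1 averaged 15.7 ± 1.002 CPM with both KO and 26.6 ± 5.35 in the others, a difference of -0.75 (SE 0.10, adjusted p = 0.00913). None of these 3 had overlapping ranges, and each call held without any 1 library (adjusted p from 8.39e-04 to 0.00588 for Gas6, from 0.00332 to 0.0438 for Stab1 and from 0.00437 to 0.0302 for Pros1).

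Axl was called higher with both KO, at 0.59 (SE 0.14, adjusted p = 0.0434). That call was lost with library totals in place of TMM (adjusted p = 0.0631) and without each library except WT-to-KO, where it ranged up to 0.159. Marco was called higher at 3.30 (SE 0.65, adjusted p = 0.0245), on the few cells given above, and lost its call without KO-to-KO, KO-to-WT or WT-to-WT (adjusted p = 0.0606, 0.0614 and 0.0526). Mertk at -0.59 (adjusted p = 0.0507) and Cd47 at 0.44 (adjusted p = 0.0508) lay beside the threshold. Both were called by DESeq2, with stricter gates and with the highest Scrublet scores removed. Without KO-to-KO both were also called (adjusted p = 0.00305 for Mertk and 0.0154 for Cd47). Without any 1 library the Mertk value ranged from -1.04 (without KO-to-KO) to -0.32 (without intact KO). That of Cd47 ranged from 0.25 (without intact WT) to 0.66 (without KO-to-KO). Msr1 was at -0.31 (adjusted p = 0.121) and Sirpa at 0.03 (adjusted p = 0.894). Beside these values, the summed level of the 8 macrophage markers was 29766 to 38845 CPM with both KO, against 48485 to 59984 in the others. A sum weighs the most abundant markers most. Over the 3 host pairs, the log2 difference (KO minus WT) ran from -0.27 to 0.28 for C1qa and from -0.28 to 0.11 for C1qb. It ran from -0.25 to 0.23 for C1qc and from -0.29 to 0.04 for Cd68. These host pairs are not the both KO contrast, and C1qa, C1qb and C1qc also define the macrophage gate. The other macrophage markers (Adgre1, Csf1r, Ms4a7 and Apoe) are given in the sum only, so which markers carry its difference is not shown. The summed level of 9 T cell markers within macrophages was 40.8 to 46.2 CPM with both KO against 6.31 to 16.3, with a UMI for all 9 in each library. Markers of monocytes (7 genes) summed to 465 to 479 CPM with both KO against 325 to 398, and those of cDC2 (9 genes) to 104 to 216 against 38.2 to 62.8. Mesenchymal or tumour markers (8 genes) summed to 14.5 to 22.8 against 26.0 to 33.1 CPM. Higher with both KO, without overlap, were also the markers of cDC1 (508 to 563 against 337 to 385 CPM), mature dendritic cells (56.6 to 71.7 against 34.9 to 49.98), NK cells (4.96 to 6.86 against 1.57 to 2.51), plasma cells (5.73 to 20.002 against 0.218 to 0.938) and endothelial cells (11.4 to 16.4 against 7.72 to 8.92). Their part in the differences was not tested.

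**Figure D2:**
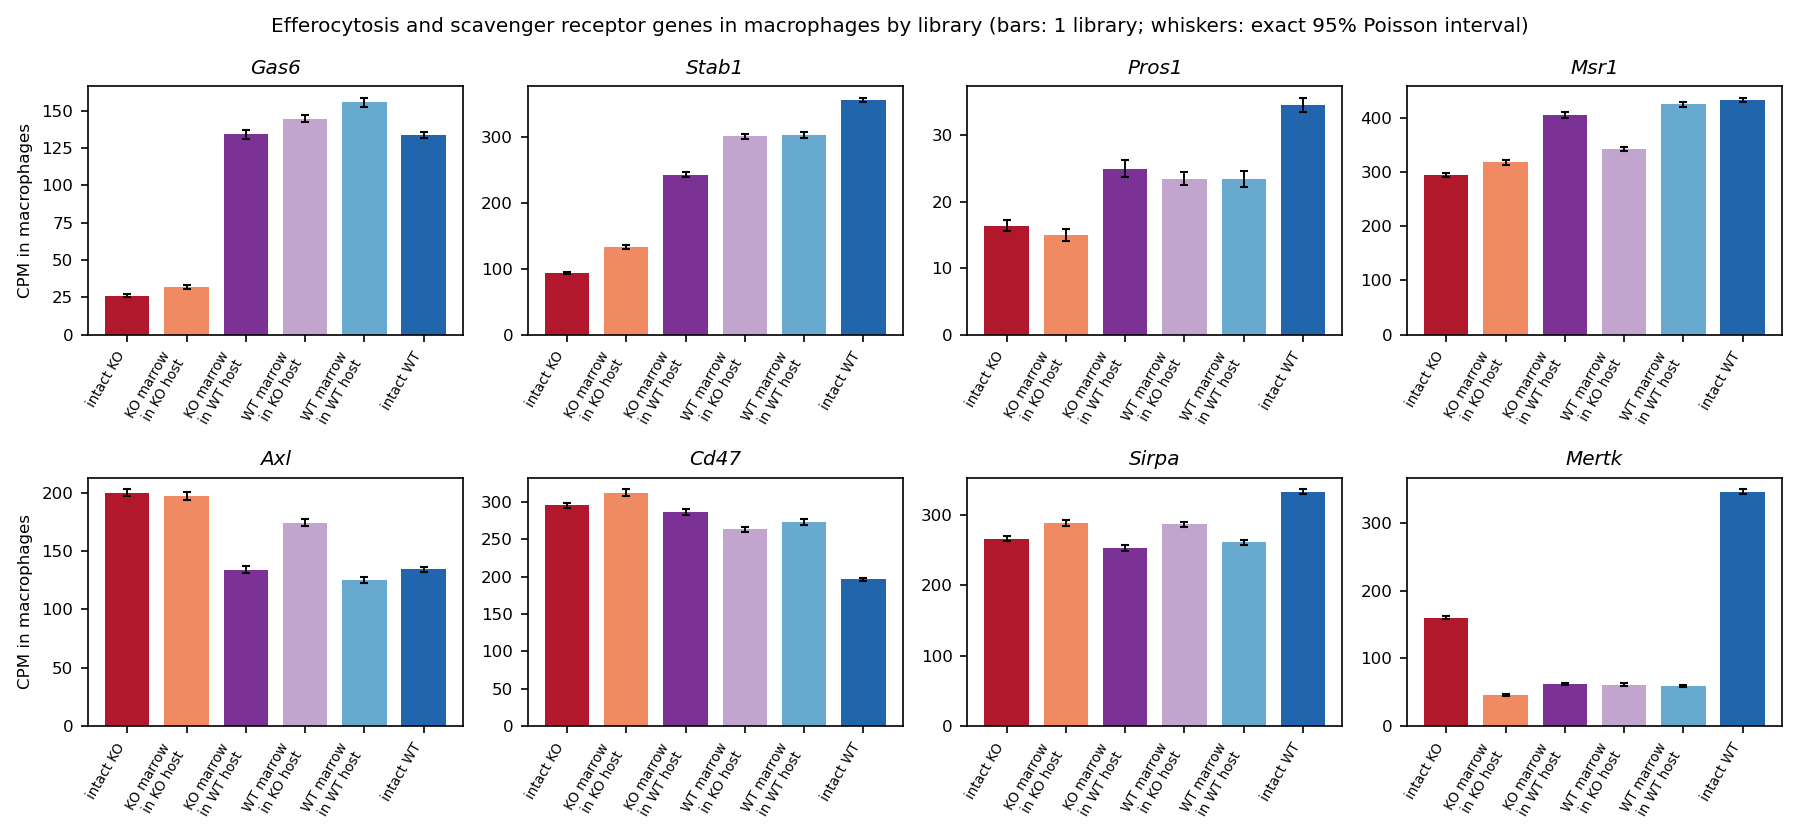
Bars give the level (CPM) of 8 of the genes in the macrophages of each library, with exact 95% Poisson intervals that cover counting error only. Gas6, Stab1 and Pros1 are lowest in the 2 libraries with KO host and KO marrow, while Mertk is highest in the 2 intact libraries.

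Gas6 was also lower with both KO within F13a1-positive macrophages, a comparison added after the values were seen. Within them, Gas6 had 85.8 CPM in intact KO and 92.9 in KO-to-KO, against 177 in KO-to-WT, 197 in WT-to-KO, 195 in WT-to-WT and 159 in intact WT, a difference of -0.91 (SE 0.09, adjusted p = 0.00382). The 2 groups did not overlap. The share of these cells, given above, was lowest in the same 2 libraries. Stab1 had 202 and 235 CPM in these cells of intact KO and KO-to-KO, against 310.3 to 415 in the others, a difference of -0.72 (SE 0.13, adjusted p = 0.0209). Cd47 at 0.36 (adjusted p = 0.0483) and Marco at 4.51 (adjusted p = 0.0271) were also called, so 4 of 9 were called where 10.8% of 14143 genes were. Axl at 0.44 (adjusted p = 0.0830) and Pros1 at -0.44 (adjusted p = 0.0559) were not called. The Gas6 call held without any 1 library, but that of Stab1 was lost without intact KO, intact WT, WT-to-KO or WT-to-WT (adjusted p up to 0.0689), that of Marco without each chimera, and that of Cd47 without any 1 library.

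Within F13a1-negative macrophages, 0 of 8 genes were called with edgeR, where 2.02% of 12273 genes were. Gas6 had 16.9 CPM in intact KO and 14.3 in KO-to-KO, against 31.0 to 48.9 in the others. Its difference of -1.21 (SE 0.23, unadjusted p = 0.00130) had an adjusted p of 0.0555, and DESeq2 called it (adjusted p = 1.97e-05). Pros1 at -0.53 had an adjusted p of 0.0625. Axl had an adjusted p of 0.710 here, at 0.11 (SE 0.13).

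**Figure D3:**
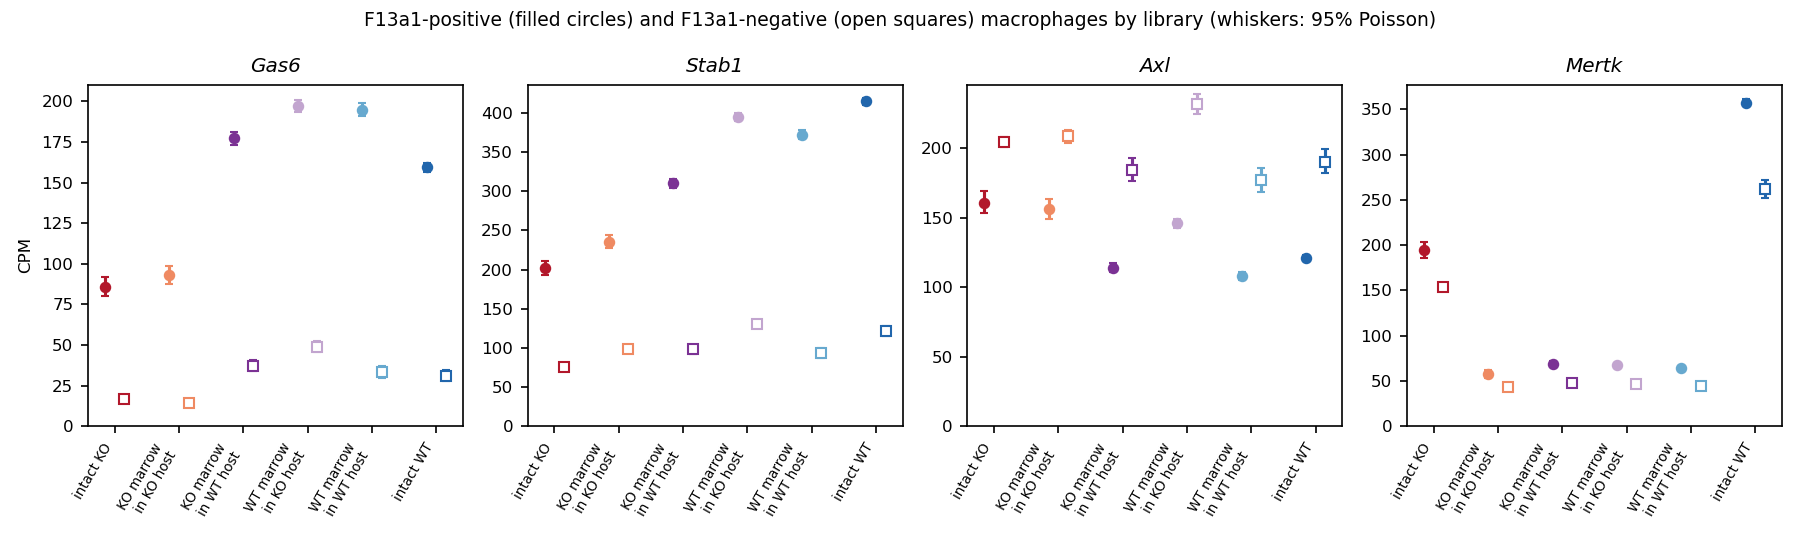
Level (CPM) in F13a1-positive (filled circles) and F13a1-negative macrophages (open squares) of each library, with 95% Poisson intervals. In every library Gas6, Stab1 and Mertk are higher and Axl is lower in the positive cells, and Gas6 in positive cells is lowest in intact KO (85.8) and KO-to-KO (92.9).

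With host and marrow as separate factors, each tested over 3 pairs of libraries and 2 residual degrees of freedom, edgeR called 0% of genes in macrophages for either factor, 0 of 15172. At an unadjusted p under 0.05 it marked 629 genes for the host and 664 for the marrow, and DESeq2 called 123 and 43. Axl had the lowest unadjusted p of the 9 genes for the host. Macrophages of KO hosts had 199.8 CPM in intact KO, 197 in KO-to-KO and 174 in WT-to-KO, and those of WT hosts 134 in intact WT, 134 in KO-to-WT and 125 in WT-to-WT. The groups did not overlap, and the host difference was 0.53 (SE 0.10, unadjusted p = 0.00285, adjusted p = 1). DESeq2 called it (adjusted p = 0.00333). In the same macrophages the markers of cDC1 summed to 385 to 563 CPM under KO hosts, against 337 to 355 under WT hosts, and those of endothelial cells to 8.92 to 16.4 against 7.72 to 8.21. The other 13 marker lists overlapped between hosts, and the part of these markers in the Axl difference was not tested. Gas6 at -1.08, Stab1 at -0.60, Pros1 at -0.45 and Msr1 at -0.33 had an unadjusted p under 0.05 for the KO host and an adjusted p of 1. Under WT marrow the pair differences (WT-to-KO minus WT-to-WT) were -0.11 for Gas6, -0.01 for Stab1 and 0.003 for Pros1. Without WT-to-KO the host value of Gas6 was -2.03 and that of Stab1 -0.98, and without KO-to-WT they were -0.14 and -0.22. For Msr1 the KO hosts averaged 318 ± 23.5 CPM and the WT hosts 421 ± 14.3 (SD, n = 3 each), without overlap. For KO marrow, Gas6 (-1.16) and Stab1 (-0.89) had an unadjusted p under 0.05 and an adjusted p of 0.860. Without KO-to-WT these marrow values were -2.13 and -1.28, and without WT-to-KO they were -0.22 and -0.50. The 2 intact libraries differ in host and marrow alike, and they enter both comparisons.

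In cDC2, Axl went the other way. KO hosts had 70.3 CPM in intact KO, 57.3 in KO-to-KO and 61.6 in WT-to-KO, from 66, 47 and 32 UMIs. WT hosts had 115 in intact WT, 109.6 in KO-to-WT and 151 in WT-to-WT, from 89, 66 and 80 UMIs. All 3 KO hosts lay below all 3 WT hosts, with a host difference of -0.91 (SE 0.24, unadjusted p = 0.00227) that was not called after adjustment (adjusted p = 0.430). In cDC2 edgeR called 0% of 6803 genes for the host, and 392 at an unadjusted p under 0.05.

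The difference between the macrophage and the cDC2 host differences was then tested in a model of both classes, added after the values were seen. For Axl it was 1.46 (SE 0.23, adjusted p = 1.08e-07), where 0.646% of 14090 genes were called. Without any 1 library it ranged from 1.34 to 1.69 (adjusted p at most 0.00551). Few degrees of freedom remain for each gene in this model, and its error borrows strength from all genes. None of the other 7 genes tested was called for this difference. For KO marrow, the same difference for Axl was 0.25 (SE 0.23, adjusted p = 1, where 0.504% of genes were called). Macrophage markers had summed levels between 1820 and 2714 CPM in cDC2 of KO hosts and between 2313 and 2688 CPM in cDC2 of WT hosts. Mesenchymal or tumour markers in cDC2 had sums between 5.32 and 10.97 CPM in KO hosts, with 3 of 8 seen in each library, and between 15.4 and 20.8 CPM in WT hosts, with 4 or 5 of 8 seen. Col1a2 and Fstl1 were at 0 in all 6 libraries, and their part in the Axl values was not tested.

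In cDC1, Axl had 78.8, 56.3 and 80.4 CPM in intact KO, KO-to-KO and WT-to-KO, against 47.9, 49.2 and 79.3 in intact WT, KO-to-WT and WT-to-WT. These groups overlapped, with a host difference of 0.39 (SE 0.33, adjusted p = 0.997, 0% of genes called), on 13 to 46 cells per library. The macrophage host difference minus that in cDC1 was 0.09 (SE 0.33, adjusted p = 1, where 0.288% of genes were called). In monocytes, KO hosts had 72.3 CPM in intact KO, 41.9 in KO-to-KO and 81.4 in WT-to-KO, and WT hosts 33.1 in intact WT, 7.97 in KO-to-WT and 25.2 in WT-to-WT, the KO-to-WT value resting on 1 UMI. The groups did not overlap. The monocyte host difference of 1.997 (SE 0.57) had an adjusted p of 0.0582, and 0 of 5 genes were called where 1.98% of all were, 1.82% higher and 0.161% lower. It was called without KO-to-KO (adjusted p = 0.0347) or without WT-to-WT (adjusted p = 0.0352). For KO marrow, 0 of 5 genes were called in monocytes (0.046% of all genes, all higher), 0 of 2 in cDC1 (0.0856% of genes, 0.0343% higher and 0.0514% lower) and 0 of 3 in cDC2 (0.0588% of genes), and none had an unadjusted p under 0.05. DESeq2 also called none of them. Axl was at -1.06 in monocytes, -0.35 in cDC1 and -0.11 in cDC2 for KO marrow.

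**Figure D4:**
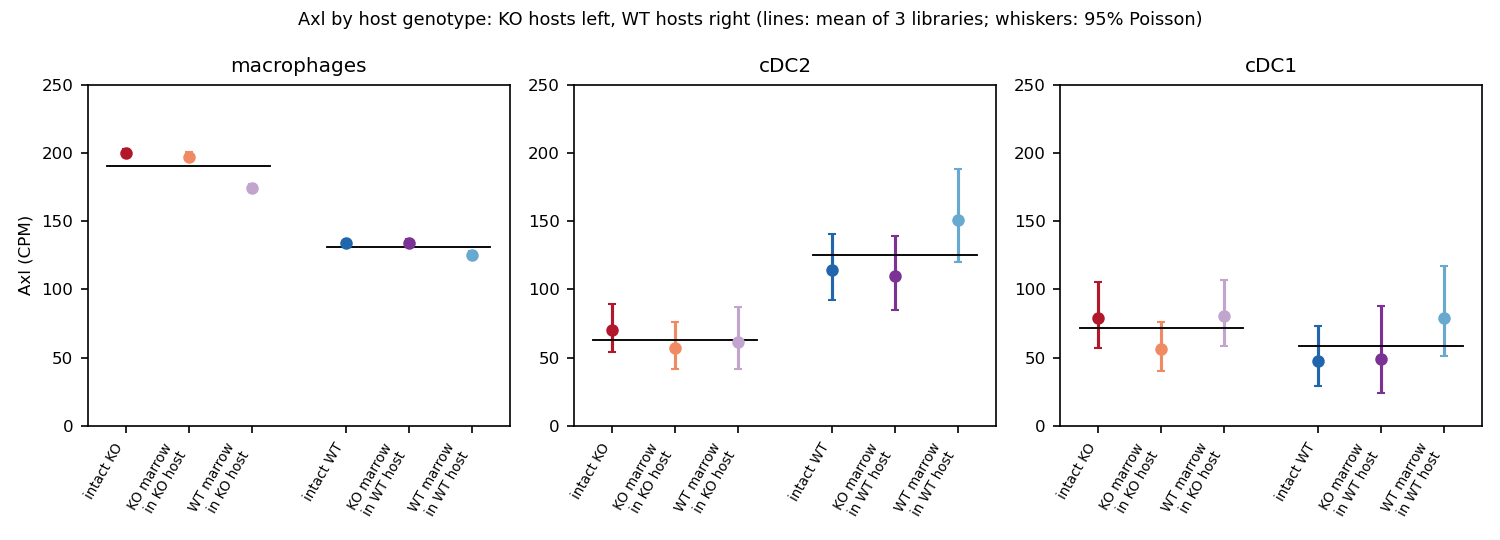
Level of Axl (CPM) in macrophages, cDC2 and cDC1, with KO hosts on the left and WT hosts on the right of each panel, lines at the mean of 3 libraries and 95% Poisson intervals. Macrophages of KO hosts average 190.4 against 131 CPM in WT hosts, cDC2 of KO hosts 63.1 against 125, and the cDC1 values overlap.

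Other genes of clearance were counted from 5 lists, drawn up with earlier results of these data known and holding 99 genes, of which 90 could be tested. With both KO in macrophages, 15 were higher and 10 lower, where 8.58% of all genes were called higher and 6.89% lower. The median log2 difference was 0.09 against -0.01 over all genes. Among receptors for apoptotic cells, 4 of 22 were higher and 3 lower. The fractalkine receptor gene Cx3cr1 fell to 252 ± 44.2 CPM with both KO, against 484 ± 54.7 in the others (-0.86, adjusted p = 0.0167), while Scarf1, a scavenger receptor that binds C1q on dying cells, was higher at 8.39 and 12.6 CPM against 2.63 to 3.63 CPM (1.81). Among other scavenger receptors, 3 of 17 were higher and 2 lower. Vsig4, a complement receptor of resident macrophages, stood at 0.638 ± 0.0710 CPM with both KO, against 12.3 ± 1.31 in the others (-4.19, SE 0.19, adjusted p = 6.31e-04). Mrc1, the mannose receptor, had 387 ± 4.35 against 757 ± 158 CPM (-0.94). Cd5 (2.18) and Cd6 (2.62) were called higher, with at most 2.39 and 2.42 CPM in any library, and both are known as T cell genes. The T cell markers in macrophages given above moved with them, and their part was not tested.

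Among genes of the engulfment machinery, 2 of 20 were higher and 4 lower (over all genes 8.58% and 6.89%), with the lysosomal protease Ctsd at 1125 ± 191 CPM with both KO, against 1987 ± 151 in the others (-0.68). Of 15 genes of the response to engulfed cargo, 2 were higher and 1 lower. A list of inhibitory signals and receptors also holds relatives that are not known as inhibitory, such as Sirpb1a, Sirpb1b, Sirpb1c, Siglec1 and Slamf7. Of its 16 genes, 4 were higher and 0 lower by edgeR at the same threshold. Slamf7 had 85.0 ± 18.0 against 26.5 ± 5.87 CPM (1.71, adjusted p = 0.00928), and it encodes a receptor of the SLAM family. The others were B2m, Pecam1 and Sirpb1c, at 1.09, 1.22 and 0.33, named after their values were seen. For host or marrow as separate factors, 0 of 90 were called by edgeR. The largest values with 1 sign in all 3 pairs were, for KO host, Slamf7 at 1.18, B2m at 0.67, Lyve1 at -1.54 and S1pr1 at -0.73. For KO marrow they were Cd36 at 1.12, Slamf7 at 0.79, Mrc1 at -0.51 and S1pr1 at -0.39.

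The macrophage states differed in the same lists. In F13a1-positive macrophages 30 of 90 were higher and 24 lower, where 17.3% and 16.9% of all genes were. The hyaluronan receptor Lyve1 averaged 24.1 ± 14.7 CPM in positive and 0.390 ± 0.460 in negative cells (6.12). Vsig4 (4.00), Cd163, the haemoglobin scavenger receptor (3.56), and Cd5l (3.11, at means of only 1.09 against 0.116 CPM) were higher as well. Cd24a (-1.71), Pparg (-1.29), Siglecg (-1.09, at means of only 0.245 against 0.545 CPM) and Slamf7 (-0.84) were lower. Of 16 genes listed as inhibitory signals and receptors or their relatives, 1 was higher (Siglec1, an adhesion receptor, at 0.98, named after its value was seen) and 10 were lower in these cells. In Cxcl9-positive macrophages, where 6.34% of all genes were higher and 5.99% lower, 22 of 90 were higher, led by Slamf7 (1.88), B2m (0.77), Nr1h3 (0.72) and Scarf1 (0.68), and 13 lower, led by Cd163 (-1.82), Colec12 (-1.06), the bridging protein Mfge8 (-0.96) and Arg1 (-0.93). In Arg1-high macrophages 17.8% of all genes were higher and 17.7% lower. With Arg1 itself left out, 28 of 89 listed genes were higher, led by Cd24a (2.35), Olr1, the oxidised LDL receptor (1.80), Thbs1 (1.77) and Slc2a1 (1.47). In those cells 28 were lower, led by Cd5l (-2.37), the phosphatidylserine receptor Timd4 (-1.93), Siglecg (-1.33) and Cd163 (-1.31), the first 3 of them at means of at most 1.18 CPM in either state.

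The genes whose level followed each of the 9 most closely over 10 classes were found by Pearson correlation of log2(CPM + 1), a description over points that share libraries. For Gas6 they were Pf4 (r = 0.99), Folr2 (0.98) and Igf1 (0.98). Msr1 was followed by Lyz2 (0.99) and F13a1 (0.98), Mertk by Ptgs1 (0.98), Itga9 (0.95) and Bach2os (0.94), and Stab1 by Pdpn, Ctsb and Pla2g15 (0.97, 0.97 and 0.96). Axl was followed by Gamt (0.96), Il11ra1 (0.95) and Plxna1 (0.95), Pros1 by Lrp1 (0.96), Lrrc8a and Nt5dc2 (0.95 each), and Sirpa by Clec4n (0.97), Gda and Osm (0.96 each). For Cd47 the closest were Selplg (0.82), Ubl5 and Adap1 (0.81 each), a looser likeness. For Marco they were 3 predicted genes (Gm47782, Gm31243 and Gm4610, 0.99 each), and its profile rests on few UMIs.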

How the data were processed

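Each deposited matrix gives, for every gene and barcode, the authors' unnormalised UMI count. Per the file headers these were made with Cell Ranger 7.0.1 for the intact and 6.1.1 for the transplanted libraries, and the submitters' processing notes name mm10 and Seurat. The handling of intron reads is not stated in the labels or headers. The version coincides with intact against transplanted, so models of all libraries carry a term for transplantation.

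Cells with at least 500 UMIs, 200 genes and at most 15% mitochondrial UMIs were kept. A class needed its markers' summed UMIs above a threshold per 10000 and at least 2 or 3 markers seen. The 995 cells in 2 gates and 3390 cells (8.39%) in none were left out. Doublets were handled by removing cells in 2 gates and, as an alternative, the 6% highest Scrublet scores (scanpy 1.11.5). UMIs were summed per class and library and compared in edgeR 4.0.16 under R 4.3.3, using the quasi-likelihood test with robust dispersions, TMM scaling and filterByExpr. As an alternative, DESeq2 1.42.0 was run. The error of the genotype contrasts is the disagreement between libraries, with 2 residual degrees of freedom for host and marrow and 3 for both KO. P-values are Benjamini-Hochberg adjusted over all genes tested in a comparison. Each SE is the absolute log2 difference divided by the square root of F. Nothing in the labels says which mice stand behind a library, so p-values measure the spread between these libraries, which may be technical. In the edgeR fits that spread is moderated over all genes. Few degrees of freedom remain per gene in the models of macrophages and a dendritic cell class. Their p-values therefore rest largely on the error borrowed from all genes. Poisson and binomial intervals (95%, exact) cover counting error only. The fits of KO host and both KO in macrophages, and of macrophages against cDC2, were also run on simulated counts with the same dispersion for every gene. The model of macrophages and a dendritic cell class and the fits within the F13a1 states were not run on simulated counts.

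The genes, lists, classes and the both KO contrast were chosen with earlier results of these data known. All 9 genes are named. From each list comparison, up to 4 called genes per direction with the largest difference are named, or, where none passed, 2 per direction of at least 10 CPM with 1 sign in all pairs. The 3 genes most like each of the 9 are also named, except 1 that is not reported here. Promoter sequences are from RefSeq (GRCm38.p6), where 7 of the 9 genes matched.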

Additional observations from a re-analysis of the deposited data

Results flagged for a closer look

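The Axl difference between KO and WT hosts went opposite ways in macrophages and cDC2. In macrophages all 3 KO hosts were higher than their paired WT hosts, and in cDC2 all 3 were lower. The difference of these differences was 1.46 on the log2 scale (SE 0.23), past the edgeR threshold after adjustment over all genes. That test was added after the values were seen, and edgeR called neither host difference on its own. The intact pair differs in marrow as well as in host.

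The mean of the 3 pair differences for Axl was 2.49 higher in monocytes than in cDC2, and 1.26 higher in cDC1 than in cDC2, on the log2 scale. In both cases all pairs of the first class rose and all pairs of cDC2 fell. Neither of these 2 differences was tested, and 1 of the cDC1 pairs differed by only 0.01. The KO-to-WT value in 1 of the monocyte pairs rested on 1 UMI in 19 cells.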

How the results depend on the processing

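Under the alternatives tried, 192 counts of called genes among the 9 stayed within 1.5 times of the reported count and 6 moved. With stricter gates 4 genes were called between Cxcl9-positive and Cxcl9-negative macrophages, and DESeq2 called 1 gene (Axl) for the KO host in macrophages. Leaving out a library gave 3 to 5 genes called for both KO and 0 to 1 for the KO host in monocytes. Over all genes, DESeq2 called 3694 for both KO against 2348 by edgeR, and leaving out a library gave 1073 to 2471. For the KO host in monocytes, 86 genes were called by edgeR, 43 by DESeq2 and 30 with stricter gates. Leaving out a library gave up to 133 there. For KO marrow in monocytes they were 2 by edgeR, 12 without the filter, 0 by DESeq2 and up to 38 without a library. For the KO host they were 0 in cDC1 (13 without the filter, up to 29 without a library) and 0 in cDC2 (58 without the filter, up to 51 without a library). For KO marrow they were 5 in cDC1 and 4 in cDC2, with up to 56 and 41 without a library. Cxcl9-positive against Cxcl9-negative macrophages had 1745 genes called, and 1147 without WT-to-KO.

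Single gene results changed sign in 4 cases, all for the Axl host difference in macrophages minus that in cDC1, which was not called in any of them. It was -1.29 with stricter gates and ranged from -0.16 to 0.41 over the libraries left out. The cause was not tested. Of the other single gene comparisons with an alternative, 957 kept their direction and side of the threshold, 31 gained a call and 32 lost one.

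Thinning cells to 2000 UMIs lowered the shares of cells with a UMI given above, as fewer UMIs per cell must. This covers Mertk and Axl in macrophages and T cells, and Axl in cDC2 and cDC1. Over the alternatives tried, 10 share results moved and 20 stayed the same. After thinning, the mean over libraries was 18.5% for Mertk in macrophages and 0.187% in T cells, 25.3% and 3.11% for Axl, 16.4% and 0.446% for Gas6, 30.2% and 2.83% for Stab1, and 15.5% for Axl in cDC2 and 10.2% in cDC1. The shares of Gas6 and Stab1 are given only after thinning. Replicates could not be paired between groups, because each group is 1 library and the labels give no replicate numbers to pair on. The tests between classes and between macrophage states were paired within each library. The library blocks and the host and marrow pairs come from the design. The tests added after the data were seen are those of the difference between classes and of both KO within the F13a1 states. The both KO contrast itself was chosen with earlier results of these data known.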
